A study of Homo sapiens with 9 samples.

Results

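The transcripts that drive cells through G2 phase and mitosis were described in cells of the human embryonic kidney line HEK293 after transfection of small interfering RNAs (siRNAs). The members were 55 listed genes, a list given by gene symbol, with earlier results of these data known: cyclins, mitotic kinases, checkpoint proteins, the anaphase-promoting complex, kinetochore and spindle proteins, condensins and their transcription factors. Of these, 46 had a probe set annotated to that gene alone, among 14232 genes with such a probe set and 22011 probe sets in all. For NCAPG, KIF20A, KIF4A, SMC4, RACGAP1, KIF23, BUB1B and NCAPD2 the probe sets were shared with other genes, and UBE2S was on no annotated probe set. The arrays formed 3 groups of 3, each replicate labelled as an independent experiment, with RNA taken 48 h after transfection: siZNF326, directed against ZNF326 (also called ZIRD), siDBC1, directed against DBC1 (gene symbol CCAR2), and siCTR, the control siRNA. All groups shared the parental line and the transfection. CCAR2 and ZNF326 proteins are studied as partners that join RNA polymerase II with messenger ribonucleoproteins, and the comparisons ask which transcripts differ when either is targeted.

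A cell enters mitosis when the kinase CDK1, bound to cyclin A or cyclin B, is switched on by CDC25 phosphatases and released from inhibition by WEE1. Chromosomes then attach to the spindle through kinetochores, and the spindle checkpoint holds back the anaphase-promoting complex and its activator CDC20 until every chromosome is attached. Most of these genes are transcribed in a wave late in the cell cycle under FOXM1, B-MYB and the repressive DREAM complex, so in a growing line such as HEK293 their summed transcripts follow the share of cells in G2 and M. In RNA from whole cultures, fewer cells in these phases and less RNA per cell cannot be told apart.

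CCAR2 read 8.01, 7.95 and 7.99 in siZNF326, 6.50, 6.54 and 6.65 in siDBC1 and 7.67, 7.67 and 7.84 in siCTR (log2 expression, replicates 1 to 3), so the transcript targeted by siDBC1 was lower on every siDBC1 array. ZNF326 read 6.12, 5.56 and 5.81 in siZNF326, 6.24, 5.64 and 7.32 in siDBC1 and 5.25, 5.64 and 5.76 in siCTR, and was not lower on the arrays labelled siZNF326. The name siZNF326 is therefore a label of those arrays below. Array medians ran from 5.58 to 5.90, and pairs of arrays correlated at 0.953 to 0.988 across probe sets. All 7 measured genes that HEK293 is known to express lay between 5.46 and 10.85, and 6 measured markers of blood, liver, red cells, endothelium and fibroblasts between 1.71 and 6.73, the upper end being COL1A1. Within the siDBC1 and siZNF326 groups, 3 arrays stood apart: over all probe sets, deviations from the group mean correlated at 0.61 between siZNF326 replicate 1 and siDBC1 replicate 3, and at −0.57 between siZNF326 replicate 1 and siDBC1 replicate 2. Deviations within a group of 3 sum to 0, which ties its arrays to each other. Values without these 3 arrays are given beside the medians and beside several genes whose difference they moved. siDBC1 then holds 1 array, which is assumed to vary like the other groups, and in that fit CCAR2 itself had an adjusted p of 0.315 against siCTR in siDBC1, so a p without the 3 arrays says little.

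None of the 46 genes passed the test in any comparison, at an adjusted p below 0.05 over all probe sets in limma's moderated test. Between siZNF326 and siCTR 0 of 46 were called, against 0.15% of all probe sets, and 2 of 46 had an unadjusted p below 0.05, against 8.65% of all. Between siDBC1 and siCTR 0 of 46 were called, against 0.0363% of all probe sets, and 3 of 46 had an unadjusted p below 0.05, against 6.18% of all. Between siZNF326 and siDBC1 the counts were 0 of 46, against 0.00909%, and 1 of 46, against 7.31%. With all arrays, the shares at an unadjusted p below 0.05 were thus under or near those of all probe sets.

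The median difference of the 46 genes was 0.10 between siZNF326 and siCTR (0.03 over all probe sets) on the log2 scale, 0.01 with arrays centred on their medians and −0.04 after quantile normalization. It was −0.05 between siDBC1 and siCTR (0.01 over all), and −0.06 and −0.07 under these scalings. Each comparison uses the same siCTR arrays. In siZNF326 30 of 46 genes lay above siCTR, against 56.6% of all probe sets, but 19 without siZNF326 replicate 1, 22 after quantile normalization and 24 with arrays centred. In siDBC1 14 of 46 lay above, against 53.8%, but 34 without siDBC1 replicate 2, 27 without siCTR replicate 3 and 4 without siDBC1 replicate 3. Between siZNF326 and siDBC1 38 of 46 lay higher in siZNF326, against 55.4%, a count that was 13 of 46 without siDBC1 replicate 2. Without the 3 arrays that stood apart the medians were −0.03 for siZNF326 against siCTR, −0.06 for siDBC1 against siCTR and 0.01 for siZNF326 against siDBC1, where it was 0.21 with all arrays.

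The 95% intervals show how large a difference these arrays could have missed. For 31 of 46 genes in siZNF326 and 36 of 46 in siDBC1 the interval of the difference from siCTR lay within 2-fold either way. For siZNF326 against siDBC1 this held for 29 of 46. The interval reached 0.22 on either side of the difference for the most even gene and 1.25 for CDK1, the most uneven. The median standard error of the 46 genes was 0.25, against 0.16 for all probe sets, so the mitotic genes varied more between arrays of a group than the typical probe set.

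**Figure D1:**
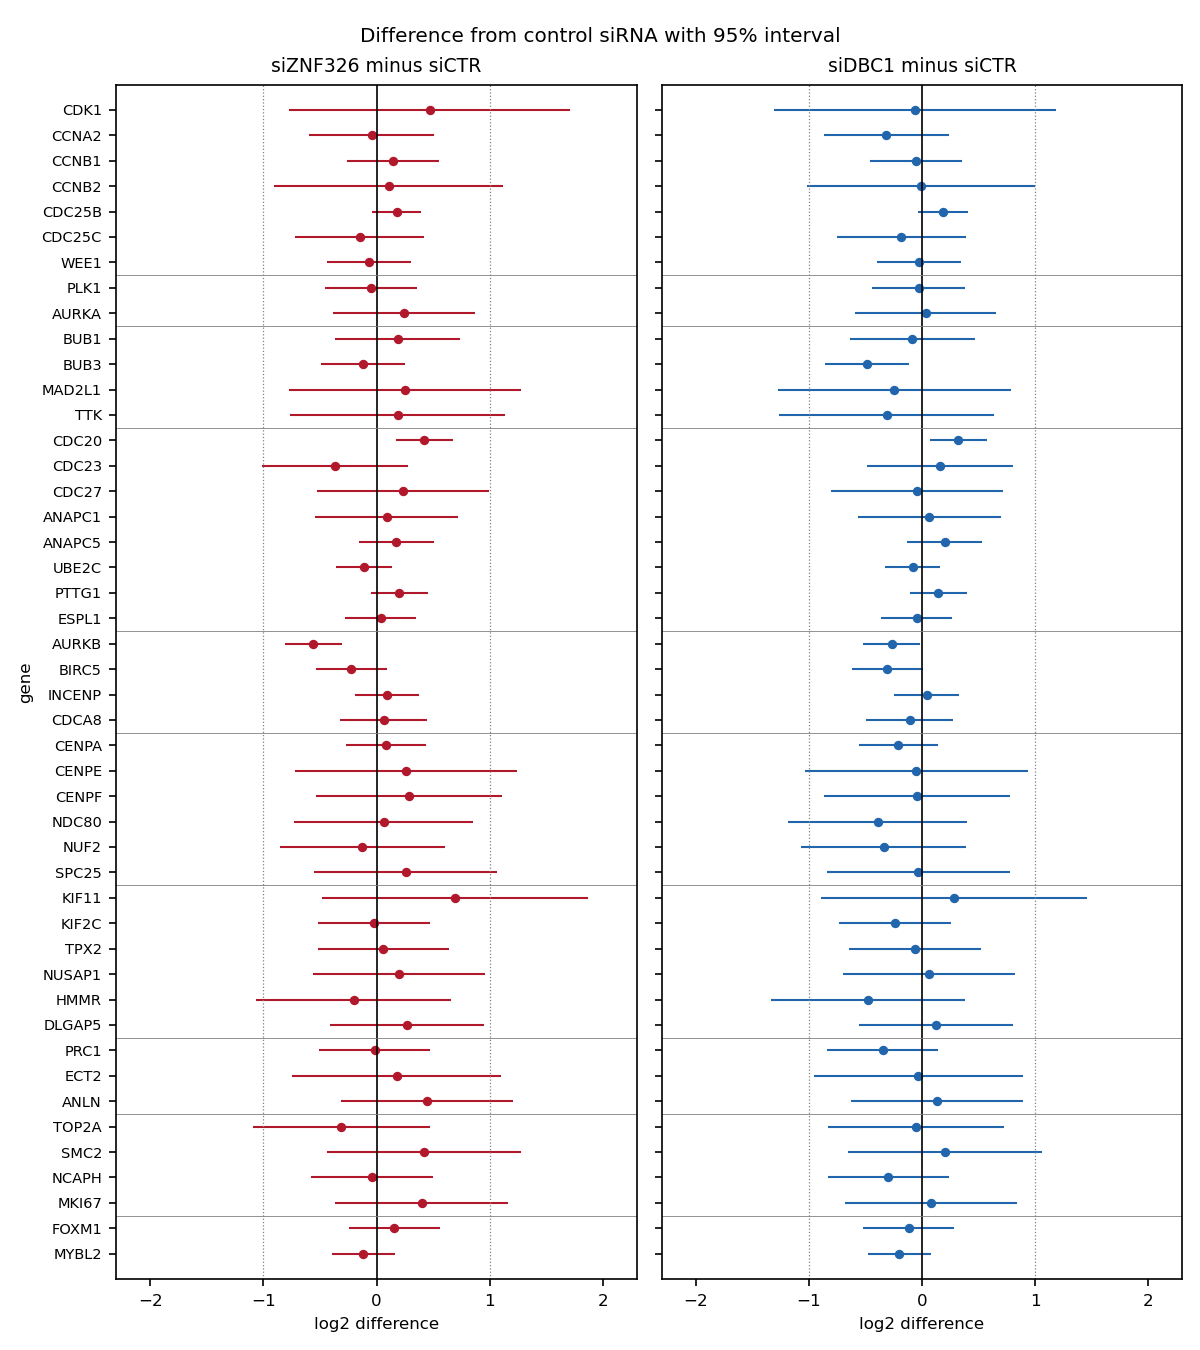
Difference of each of the 46 genes from siCTR (points) with its 95% interval (lines) on the log2 scale, for siZNF326 on the left and siDBC1 on the right, in the order of their roles. Dotted lines mark 2-fold either way, and the interval excluded 0 for 2 genes in siZNF326 (AURKB and CDC20) and 3 in siDBC1 (BUB3, CDC20 and AURKB).

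The larger differences lay between replicates of a group. The median distance of the 46 genes from their siCTR means was 0.30, −0.03 and −0.07 on siZNF326 replicates 1 to 3, and −0.06, −0.55 and 0.33 on siDBC1 replicates 1 to 3. The siCTR arrays themselves lay at −0.05, −0.08 and 0.12. Over all probe sets the same medians were 0.08, 0.02 and 0.00 in siZNF326, 0.01, −0.06 and 0.09 in siDBC1 and −0.04, −0.02 and 0.06 in siCTR. In the deposited values most mitotic transcripts were thus low on siDBC1 replicate 2 and high on siDBC1 replicate 3 and siZNF326 replicate 1. With arrays centred on their medians the 3 medians were 0.12 on siZNF326 replicate 1, −0.41 on siDBC1 replicate 2 and 0.16 on siDBC1 replicate 3, and after quantile normalization 0.06, −0.30 and 0.12.

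**Figure D2:**
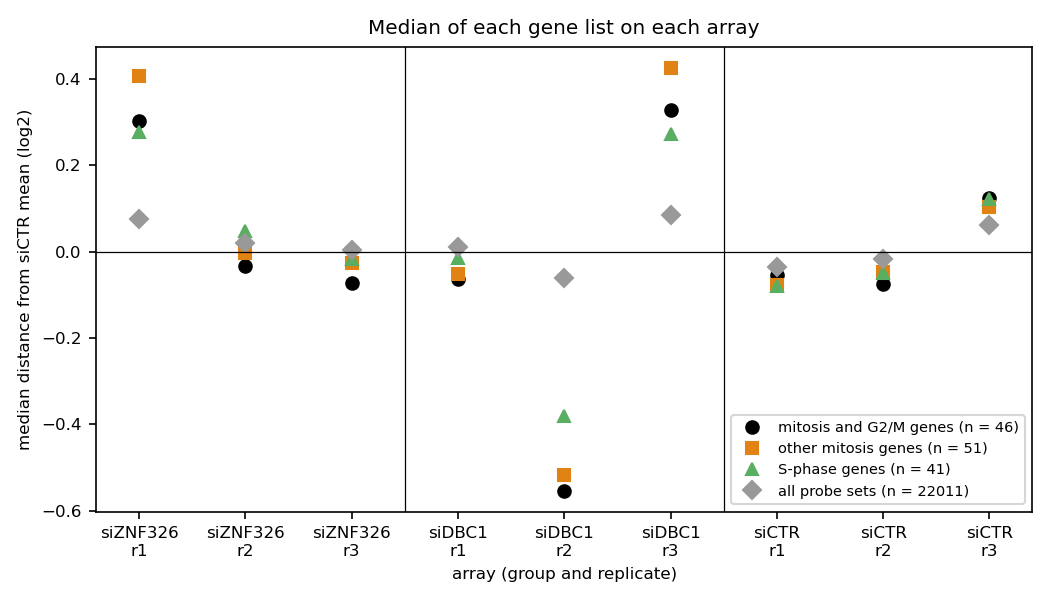
Median distance from the siCTR mean (log2) of 4 sets of transcripts on each of the 9 arrays: the 46 mitosis and G2/M genes, 51 other mitosis genes, 41 S-phase genes and all probe sets. On siDBC1 replicate 2 the mitosis and G2/M genes lay at −0.55 and all probe sets at −0.06.

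Gene by gene, siDBC1 replicate 2 lay below all siCTR arrays for 40 of 46 genes (87.0%, against 41.1% of all probe sets) and was the lowest of the 9 arrays for 36 (against 33.7%). By contrast, siDBC1 replicate 3 lay above all siCTR arrays for 36 of 46 (78.3%, against 45.3%) and siZNF326 replicate 1 for 37 (80.4%, against 44.3%). For 27 of 46 genes (58.7%, against 16.4% of all probe sets) siDBC1 replicate 2 was the lowest array while siDBC1 replicate 3 and siZNF326 replicate 1 were the highest pair. These 27 came from 9 of the 10 roles, the transcription factors being the exception. The count was 19 of 46 (41.3%, against 8.84% of all probe sets) with arrays centred on their medians and 17 of 46 (37.0%, against 7.01%) after quantile normalization.

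From siDBC1 replicate 2 to siDBC1 replicate 3 the median gene differed by 1.01 on the log2 scale, and 45 of 46 genes were higher on replicate 3, against a median of 0.19 and 62.8% of all probe sets. With arrays centred on their medians the difference was 0.71 (41 of 46 higher) where all probe sets gave −0.12 (43.0% higher). After quantile normalization it was 0.46 (35 of 46) where all probe sets gave −0.09 (42.2%). The direction of the mitotic genes was kept under both scalings, at a smaller size. As deposited, replicate 3 was also the higher for 41 of 41 S-phase genes and 10 of 10 cohesin genes. The direction was therefore not particular to the 46 genes. The scalings themselves set the shift of all probe sets near 0, so its change of sign is not read as a difference between arrays. The arrays carry no label of batch or of cell-cycle state, and what set these arrays apart was not tested.

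**Figure D3:**
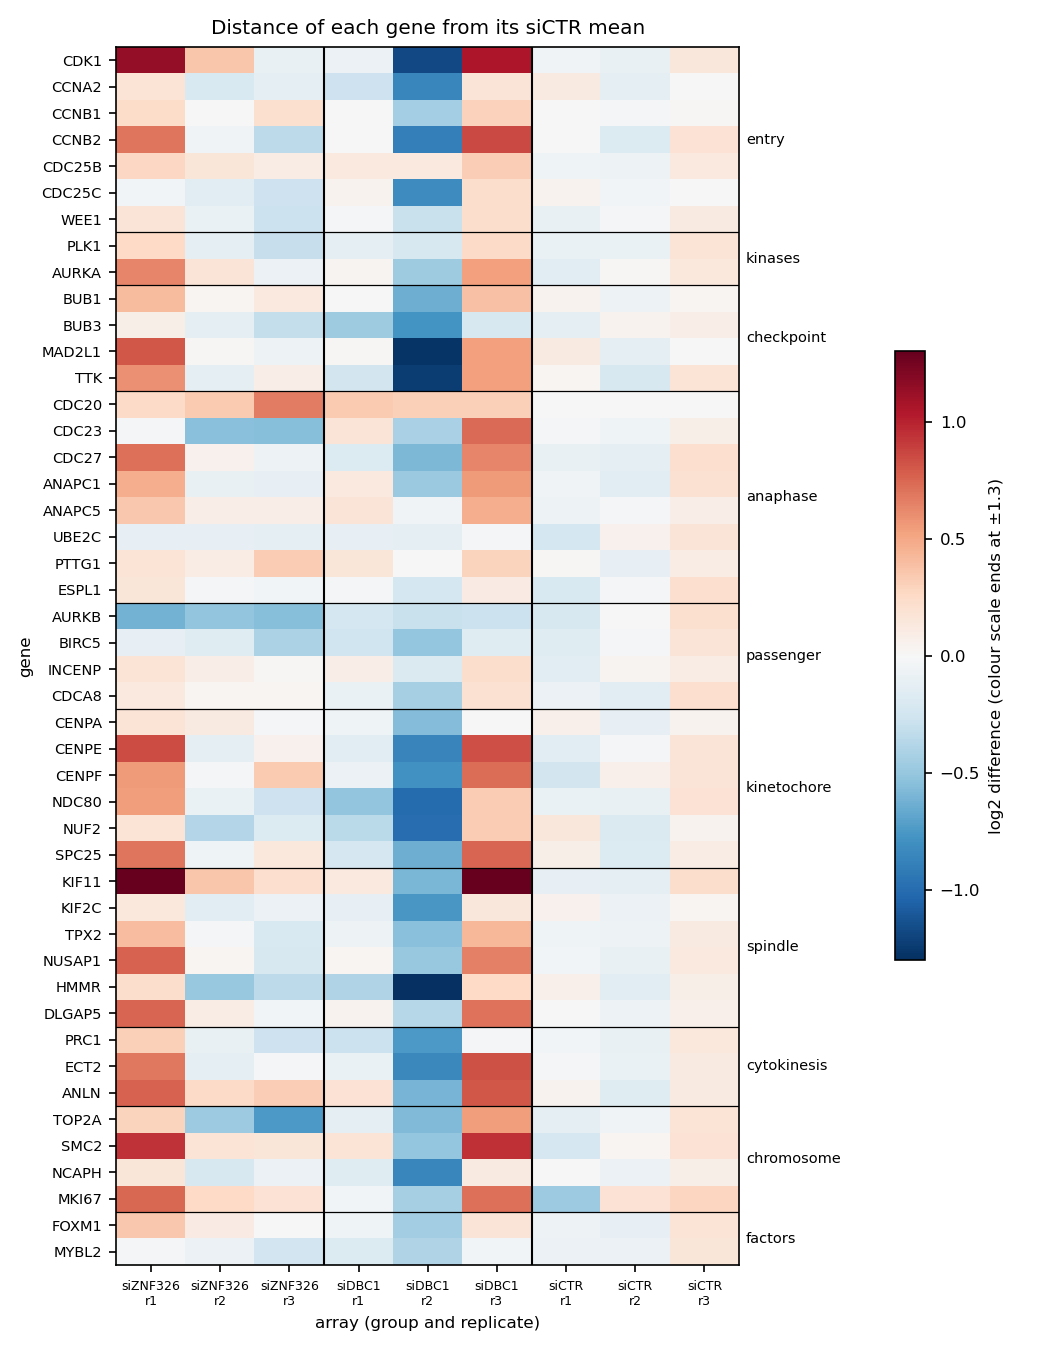
Distance of each of the 46 genes (rows, by role) from its siCTR mean on each of the 9 arrays (columns), in log2 units, red above and blue below. The columns of siZNF326 replicate 1 and siDBC1 replicate 3 are mostly red and that of siDBC1 replicate 2 mostly blue, and the rows of CDC20, CDC25B, AURKB, BIRC5, UBE2C and MYBL2 keep to one side of the siCTR mean across siZNF326 and siDBC1.

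Of the 7 genes of mitotic entry, CDK1, the catalytic kinase, showed the widest spread between replicates. It read 7.92, 7.13 and 6.68 in siZNF326, 6.70, 5.61 and 7.83 in siDBC1 and 6.73, 6.68 and 6.92 in siCTR on the log2 scale. Its groups overlapped, with siDBC1 replicate 2 below and siDBC1 replicate 3 above all siCTR arrays, 2.22 apart. The difference from siCTR was 0.47 in siZNF326 (95% interval −0.78 to 1.71, adjusted p = 0.819) and −0.06 in siDBC1 (−1.31 to 1.18, adjusted p = 0.999). Single arrays decided both: the difference was 0.13 in siZNF326 without its replicate 1, and in siDBC1 0.49 without its replicate 2 and −0.62 without its replicate 3.

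CCNB1, cyclin B1, the main mitotic partner of CDK1, read 9.84, 9.60 and 9.82 in siZNF326, 9.60, 9.16 and 9.90 in siDBC1 and 9.61, 9.58 and 9.62 in siCTR. CCNA2, cyclin A2, which acts in S phase and at mitotic entry, read 8.23, 7.85 and 7.94 in siZNF326, 7.78, 7.21 and 8.21 in siDBC1 and 8.17, 7.94 and 8.05 in siCTR. In both cyclins siDBC1 replicate 2 was the lowest array, and the groups overlapped in the deposited values. After quantile normalization the CCNA2 arrays of siZNF326 and of siDBC1 lay below all siCTR arrays. CCNA2 differed from siCTR by −0.04 in siZNF326 (adjusted p = 0.967) and −0.32 in siDBC1 (adjusted p = 0.955). Without the 3 arrays that stood apart it differed by −0.155 and −0.27. CCNB2, cyclin B2, had the widest replicate difference of the cyclins, 1.74 between siDBC1 replicates 3 and 2, while its means were 7.16 ± 0.53 in siZNF326, 7.05 ± 0.87 in siDBC1 and 7.05 ± 0.18 in siCTR (SD, n = 3 each).

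None of the 3 measured regulators of CDK1 passed the test. CDC25B, a phosphatase that activates CDK1, read 7.37, 7.26 and 7.20 in siZNF326, 7.22, 7.22 and 7.41 in siDBC1 and 7.04, 7.03 and 7.22 in siCTR. Most of its treated arrays lay above most siCTR arrays, with siCTR replicate 3 inside their range, and the differences were 0.18 in siZNF326 (SE 0.094, adjusted p = 0.647) and 0.19 in siDBC1 (adjusted p = 0.879). In siZNF326 it was 0.09 with arrays centred on their medians and 0.02 after quantile normalization, while in siDBC1 it was 0.17 under both. Under both scalings the siDBC1 arrays of CDC25B lay above all siCTR arrays, and the siZNF326 arrays of CDC25C below all of them. CDC25C, a second such phosphatase, differed from siCTR by −0.15 in siZNF326 (adjusted p = 0.873) and by −0.18 in siDBC1 (adjusted p = 0.983). WEE1, the kinase that keeps CDK1 inactive, differed by −0.07 (adjusted p = 0.916) and −0.03 (adjusted p = 0.999). When the 3 arrays that stood apart were left out, CDC25C differed by −0.21 in siZNF326 and 0.05 in siDBC1, WEE1 by −0.18 in siZNF326, and CCNB2 by −0.19 in siZNF326, where it was 0.11 with all arrays.

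Among the kinases that build the spindle, PLK1, polo-like kinase 1, read 9.36, 8.99 and 8.81 in siZNF326, 8.99, 8.90 and 9.35 in siDBC1 and 9.02, 9.02 and 9.28 in siCTR. AURKA, the Aurora kinase of the spindle poles, read 7.51, 7.04 and 6.80 in siZNF326, 6.91, 6.41 and 7.40 in siDBC1 and 6.72, 6.89 and 7.01 in siCTR. Both were highest on siZNF326 replicate 1 and siDBC1 replicate 3, and their groups overlapped. PLK1 differed from siCTR by −0.05 in siZNF326 (adjusted p = 0.943) and −0.03 in siDBC1 (adjusted p = 0.999), and AURKA by 0.24 (adjusted p = 0.813) and 0.03 (adjusted p = 0.999). PLK1 differed by −0.21 in siZNF326 and −0.12 in siDBC1 without the 3 arrays that stood apart, and AURKA by 0.04 in siZNF326.

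All 4 measured genes of the spindle checkpoint lay below siCTR in siDBC1 on average, with a median difference of −0.28. Without siDBC1 replicate 2, BUB1, MAD2L1 and TTK differed from siCTR by 0.19, 0.27 and 0.15, and BUB3 by −0.34. Without the 3 arrays that stood apart the median was −0.13, and MAD2L1 lay above siCTR by 0.02. BUB3, which carries the checkpoint kinases to kinetochores, read 10.08, 9.88 and 9.70 in siZNF326, 9.54, 9.23 and 9.79 in siDBC1 and 9.88, 10.05 and 10.09 in siCTR. Every siDBC1 array of BUB3 lay below every siCTR array, which also held for 8.84% of all probe sets in 1 direction or the other. Its difference was −0.48 in siDBC1 (SE 0.16, 95% interval −0.85 to −0.11, adjusted p = 0.669) and did not pass the test. In siZNF326 it was −0.12 (adjusted p = 0.847), and −0.22 without the 3 arrays that stood apart. The separation of siDBC1 from siCTR in BUB3 was kept under both other scalings. With arrays centred on their medians the siZNF326 arrays also lay below all siCTR arrays.

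BUB1, a checkpoint kinase that recruits further checkpoint proteins to the kinetochore, read 8.51, 8.11 and 8.22 in siZNF326, 8.08, 7.46 and 8.47 in siDBC1 and 8.13, 8.02 and 8.11 in siCTR. MAD2L1, the protein that binds and holds CDC20 in check, read 8.45, 7.65 and 7.58 in siZNF326, 7.66, 6.36 and 8.17 in siDBC1 and 7.75, 7.52 and 7.65 in siCTR. Both repeated the order of arrays seen for CDK1, with overlapping groups. Between siDBC1 replicates 3 and 2 MAD2L1 differed by 1.81 and TTK, the kinase MPS1 at the top of the checkpoint, by 1.77. In siZNF326 BUB1, MAD2L1 and TTK differed from siCTR by 0.19, 0.25 and 0.19, and by 0.08, −0.02 and −0.02 without the 3 arrays that stood apart.

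Among the genes of anaphase, the arrays of CDC20 lay above every siCTR array in both siZNF326 and siDBC1 in the deposited values. No other gene of the 46 did so, while AURKB lay below siCTR in both. Separation in 1 direction or the other held for 18.2% of all probe sets in siZNF326 and 8.84% in siDBC1. The share of all probe sets separated in both was not counted. CDC20, which activates the anaphase-promoting complex and is the target of the checkpoint, read 9.73, 9.82 and 10.15 in siZNF326, 9.82, 9.79 and 9.79 in siDBC1 and 9.47, 9.49 and 9.48 in siCTR. Neither treated group overlapped siCTR, and the siCTR arrays lay within 0.02 of each other. The means were 9.90 ± 0.22 in siZNF326, 9.80 ± 0.017 in siDBC1 and 9.48 ± 0.0081 in siCTR (SD, n = 3 each).

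The difference of CDC20 from siCTR was 0.42 in siZNF326 (SE 0.11, 1.34-fold, 95% interval 0.17 to 0.67, adjusted p = 0.295) and 0.32 in siDBC1 (1.25-fold, 0.07 to 0.57, adjusted p = 0.694). Neither passed the test. Both comparisons use the same siCTR arrays, so the pair of differences is not independent. The separation was the same with arrays centred on their medians and after quantile normalization, and without the 3 arrays that stood apart the differences were 0.51 and 0.34, that of siDBC1 from 1 array. CDC20 differed between siZNF326 and siDBC1 by 0.10 (95% interval −0.15 to 0.35, adjusted p = 0.826).

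PTTG1, securin, which blocks separase until anaphase, read 10.74, 10.66 and 10.89 in siZNF326, 10.71, 10.55 and 10.85 in siDBC1 and 10.57, 10.45 and 10.66 in siCTR. Its siZNF326 arrays lay above all siCTR arrays by a narrow margin, a separation that was lost under both scalings, and its siDBC1 arrays overlapped them except with arrays centred on their medians. The differences were 0.20 in siZNF326 (SE 0.11, adjusted p = 0.647) and 0.15 in siDBC1 (adjusted p = 0.955). ESPL1, separase, the protease that cuts cohesin, differed by 0.04 (adjusted p = 0.948) and −0.05 (adjusted p = 0.998).

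UBE2C, the ubiquitin-conjugating enzyme of the anaphase-promoting complex, read 6.88, 6.88 and 6.88 in siZNF326, 6.88, 6.86 and 6.98 in siDBC1 and 6.76, 7.05 and 7.16 in siCTR. The treated arrays were nearly level and lay within the range of siCTR. Replicates 1 and 2 of siZNF326 and replicate 1 of siDBC1 held the same deposited value, 6.878, so part of this evenness is a tie. CDC23, a core subunit of the complex, read 7.61, 7.08 and 7.07 in siZNF326, 7.79, 7.20 and 8.35 in siDBC1 and 7.60, 7.56 and 7.70 in siCTR, with overlap in each comparison in the deposited values. Its differences from siCTR were −0.37 in siZNF326 (adjusted p = 0.733) and 0.16 in siDBC1 (adjusted p = 0.993). Under both other scalings the siZNF326 arrays of CDC23 lay below all siCTR arrays, and after quantile normalization also below all siDBC1 arrays. Without the 3 arrays that stood apart CDC23 differed from siCTR by −0.545 in siZNF326 and 0.17 in siDBC1. The subunits CDC27, ANAPC1 and ANAPC5 differed from siCTR by 0.09 to 0.24 in siZNF326 and by −0.04 to 0.20 in siDBC1. These subunits lay between −0.10 and 0.09 in siZNF326 and between −0.18 and 0.17 in siDBC1 without the 3 arrays that stood apart. Under both other scalings the siDBC1 arrays of ANAPC5 lay above all siCTR arrays. Its siZNF326 arrays did so with arrays centred on their medians.

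**Figure D4:**
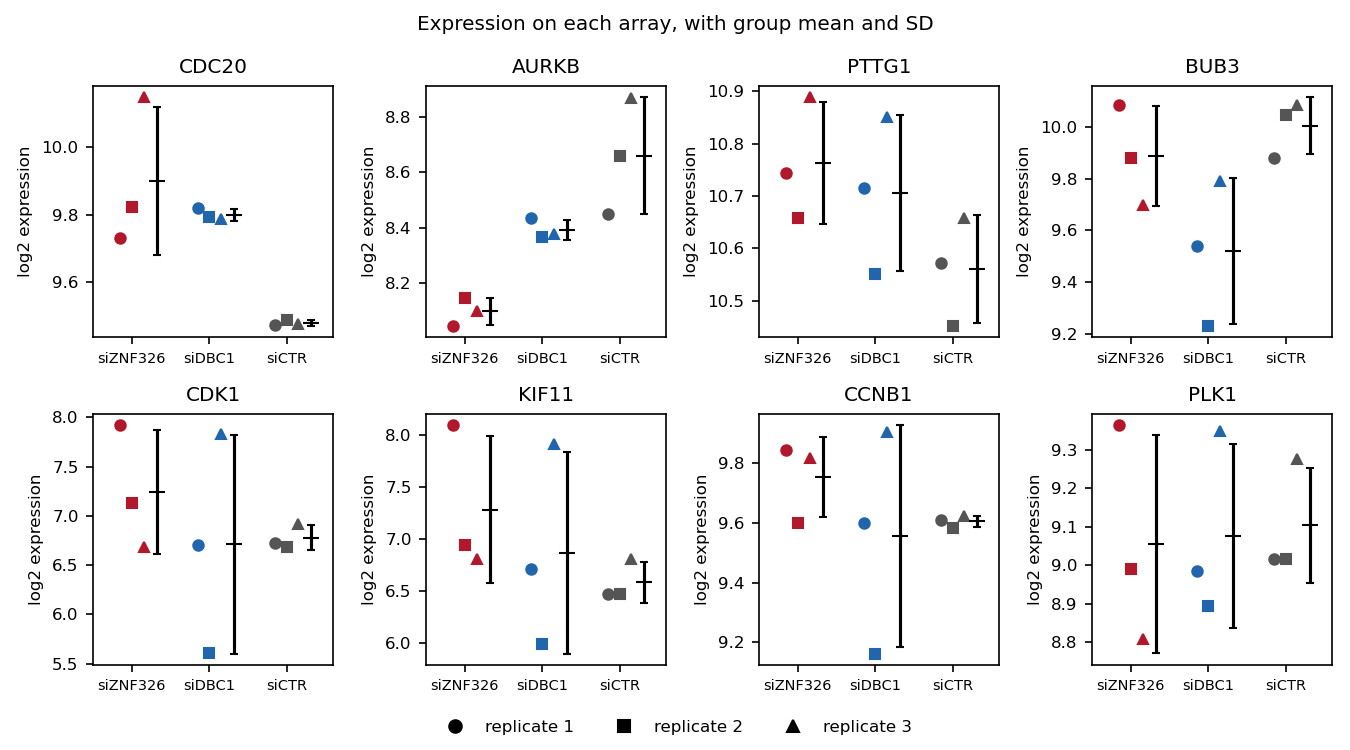
Log2 expression of CDC20, AURKB, PTTG1, BUB3, CDK1, KIF11, CCNB1 and PLK1 on each array, with the group mean and SD (bars) beside the points. CDC20 lies above siCTR and AURKB below it in both other groups with no overlap, while CDK1 and KIF11 spread widely within siZNF326 and siDBC1.

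Among the chromosomal passengers AURKB had the smallest p of the 46 genes in siZNF326. AURKB, the Aurora kinase that corrects faulty attachments at centromeres, read 8.05, 8.15 and 8.10 in siZNF326, 8.44, 8.37 and 8.38 in siDBC1 and 8.45, 8.66 and 8.87 in siCTR. The siZNF326 arrays lay below all others, and the siDBC1 arrays lay just below siCTR, with siDBC1 replicate 1 and siCTR replicate 1 nearly level. The means were 8.10 ± 0.050 in siZNF326, 8.39 ± 0.037 in siDBC1 and 8.66 ± 0.21 in siCTR (SD, n = 3 each).

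The difference of AURKB from siCTR was −0.56 in siZNF326 (SE 0.11, 1.48-fold lower, 95% interval −0.81 to −0.31, adjusted p = 0.138) and −0.27 in siDBC1 (1.20-fold lower, −0.52 to −0.01, adjusted p = 0.784). Between siZNF326 and siDBC1 it was −0.29 (−0.55 to −0.04, adjusted p = 0.657). No difference passed the test. The separation of siZNF326 from siCTR and from siDBC1 was kept under both other scalings, whereas siDBC1 overlapped siCTR under both. Without the 3 arrays that stood apart the differences from siCTR were −0.54 in siZNF326 and −0.22 in siDBC1.

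Of the partners of AURKB, BIRC5 also lay below siCTR on average in both groups. BIRC5, survivin, which brings the complex to centromeres, read 8.24, 8.19 and 7.93 in siZNF326, 8.09, 7.84 and 8.19 in siDBC1 and 8.19, 8.34 and 8.51 in siCTR. Its siDBC1 arrays lay below siCTR with replicate 3 level with siCTR replicate 1 to 2 decimals, and its siZNF326 arrays overlapped siCTR in the deposited values. Under both other scalings the arrays of both groups lay below all siCTR arrays. The difference of BIRC5 was −0.22 in siZNF326 (SE 0.14, adjusted p = 0.677) and −0.31 in siDBC1 (adjusted p = 0.820). INCENP, the scaffold of the complex, differed by 0.09 (adjusted p = 0.843) and 0.04 (adjusted p = 0.999), and CDCA8, borealin, by 0.06 (adjusted p = 0.924) and −0.11 (adjusted p = 0.987).

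The 6 measured kinetochore genes differed more between arrays of a group than between groups, with a median difference of 1.36 between siDBC1 replicates 3 and 2. CENPF, a large protein of the outer kinetochore, read 8.18, 7.61 and 7.98 in siZNF326, 7.56, 6.84 and 8.36 in siDBC1 and 7.40, 7.70 and 7.80 in siCTR. NDC80, which binds spindle microtubules, read 6.39, 5.75 and 5.57 in siZNF326, 5.33, 4.85 and 6.17 in siDBC1 and 5.75, 5.74 and 6.03 in siCTR. In both, siDBC1 replicate 2 was the lowest array by a wide margin and the groups overlapped.

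CENPA, the histone variant that marks centromeres, read 7.53, 7.47 and 7.33 in siZNF326, 7.30, 6.80 and 7.35 in siDBC1 and 7.42, 7.25 and 7.40 in siCTR. It stood lower on siDBC1 replicate 2 than on the other arrays, whose values were close together. NUF2 and SPC25, partners of NDC80, and the motor CENPE differed from siCTR by −0.13 to 0.26 in siZNF326 and by −0.34 to −0.03 in siDBC1, with adjusted p values of 0.845 or more. The 6 genes had differences from siCTR of −0.13 to 0.29 in siZNF326 and of −0.39 to −0.03 in siDBC1. Without the 3 arrays that stood apart CENPF differed by 0.16, NDC80 by −0.18, NUF2 by −0.28, SPC25 by 0.04 and CENPE by −0.04 in siZNF326, and in siDBC1 the range was −0.51 to −0.05.

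KIF11, the kinesin that pushes spindle poles apart, had the largest difference of the 46 genes in siZNF326. It read 8.09, 6.94 and 6.81 in siZNF326, 6.71, 5.99 and 7.91 in siDBC1 and 6.48, 6.47 and 6.81 in siCTR. siZNF326 replicate 1 and siDBC1 replicate 3 lay above the others by more than the spread of siCTR, and siZNF326 replicate 3 was level with the highest siCTR array in the deposited values. Under both other scalings all siZNF326 arrays of KIF11 lay above all siCTR arrays. The difference was 0.69 in siZNF326 (SE 0.51, 95% interval −0.48 to 1.87, adjusted p = 0.728) and 0.28 in siDBC1 (adjusted p = 0.994). Without the 3 arrays that stood apart it was 0.29 in siZNF326 and 0.13 in siDBC1. With all other arrays kept, it was −0.23 in siDBC1 without its replicate 3 and 0.73 without its replicate 2.

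The other spindle genes were KIF2C, a kinesin that shortens microtubules, TPX2, which activates AURKA, NUSAP1 and DLGAP5, which bind spindle microtubules, and HMMR, a spindle and centrosome protein. They differed from siCTR by −0.20 to 0.27 in siZNF326 and by −0.48 to 0.12 in siDBC1, with adjusted p values of 0.810 or more. The range was −0.42 to 0.03 in siZNF326 and −0.39 to 0.05 in siDBC1 without the 3 arrays that stood apart. Each of the 6 spindle genes was highest on siZNF326 replicate 1 and siDBC1 replicate 3 and lowest on siDBC1 replicate 2.

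For cytokinesis, PRC1, which bundles the microtubules of the spindle midzone, read 9.55, 9.14 and 8.97 in siZNF326, 8.95, 8.49 and 9.22 in siDBC1 and 9.20, 9.14 and 9.37 in siCTR. ANLN, anillin, a scaffold of the contractile ring, read 8.19, 7.67 and 7.75 in siZNF326, 7.62, 6.82 and 8.24 in siDBC1 and 7.47, 7.26 and 7.54 in siCTR. The groups of PRC1 overlapped in the deposited values, with differences of −0.02 in siZNF326 (adjusted p = 0.989) and −0.35 in siDBC1 (adjusted p = 0.928). Under both other scalings the siDBC1 arrays of PRC1 lay below all siCTR arrays. All siZNF326 arrays of ANLN lay above siCTR, by a difference of 0.44 (SE 0.33, adjusted p = 0.730), while those of siDBC1 lay on both sides of it. ECT2, which activates the small GTPase RhoA at the cell equator, differed by 0.18 in siZNF326 (adjusted p = 0.912) and −0.03 in siDBC1 (adjusted p = 0.999). In siZNF326 ANLN differed by 0.28, ECT2 by −0.08 and PRC1 by −0.18 without the 3 arrays that stood apart, and in siDBC1 by 0.19, −0.09 and −0.28.

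Among the genes of chromosome structure, TOP2A, the topoisomerase that untangles sister DNA, read 9.44, 8.67 and 8.40 in siZNF326, 9.02, 8.57 and 9.69 in siDBC1 and 9.02, 9.09 and 9.32 in siCTR. MKI67, the antigen Ki-67 that coats mitotic chromosomes, read 8.35, 7.85 and 7.79 in siZNF326, 7.56, 7.17 and 8.31 in siDBC1 and 7.12, 7.79 and 7.88 in siCTR. In TOP2A siZNF326 replicates 2 and 3 were among the lowest arrays, and in MKI67 siCTR replicate 1 was as low as siDBC1 replicate 2. Their differences from siCTR were −0.31 and 0.40 in siZNF326 (adjusted p = 0.809 and 0.753) and −0.05 and 0.08 in siDBC1 (both adjusted p = 0.999). Of the condensin subunits, SMC2 differed by 0.42 in siZNF326 (adjusted p = 0.767) and 0.21 in siDBC1 (adjusted p = 0.994), and NCAPH by −0.04 (adjusted p = 0.968) and −0.30 (adjusted p = 0.955). Leaving out the 3 arrays that stood apart, TOP2A differed by −0.61, MKI67 by 0.22, SMC2 by 0.17 and NCAPH by −0.14 in siZNF326, and in siDBC1 by −0.12, −0.04, 0.18 and −0.15.

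The factors that transcribe this wave had a median SD within groups of 0.19, against 0.34 for all 46 genes and 0.21 for all probe sets. FOXM1, a forkhead activator of G2/M genes, read 8.12, 7.87 and 7.77 in siZNF326, 7.71, 7.31 and 7.93 in siDBC1 and 7.70, 7.66 and 7.94 in siCTR. MYBL2, which encodes B-MYB, read 9.14, 9.08 and 8.91 in siZNF326, 8.98, 8.77 and 9.13 in siDBC1 and 9.08, 9.09 and 9.32 in siCTR. In the deposited values both groups overlapped siCTR in both genes, and siDBC1 replicate 2 was the lowest array. Under both other scalings the arrays of MYBL2 lay below siCTR in both groups, and after quantile normalization so did those of FOXM1 in siDBC1. FOXM1 and MYBL2 differed by 0.16 and −0.12 in siZNF326 (adjusted p = 0.814 and 0.797) and by −0.12 and −0.20 in siDBC1 (adjusted p = 0.985 and 0.928). FOXM1 differed by 0.06 in siZNF326 and −0.06 in siDBC1 without the 3 arrays that stood apart.

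**Figure D5:**
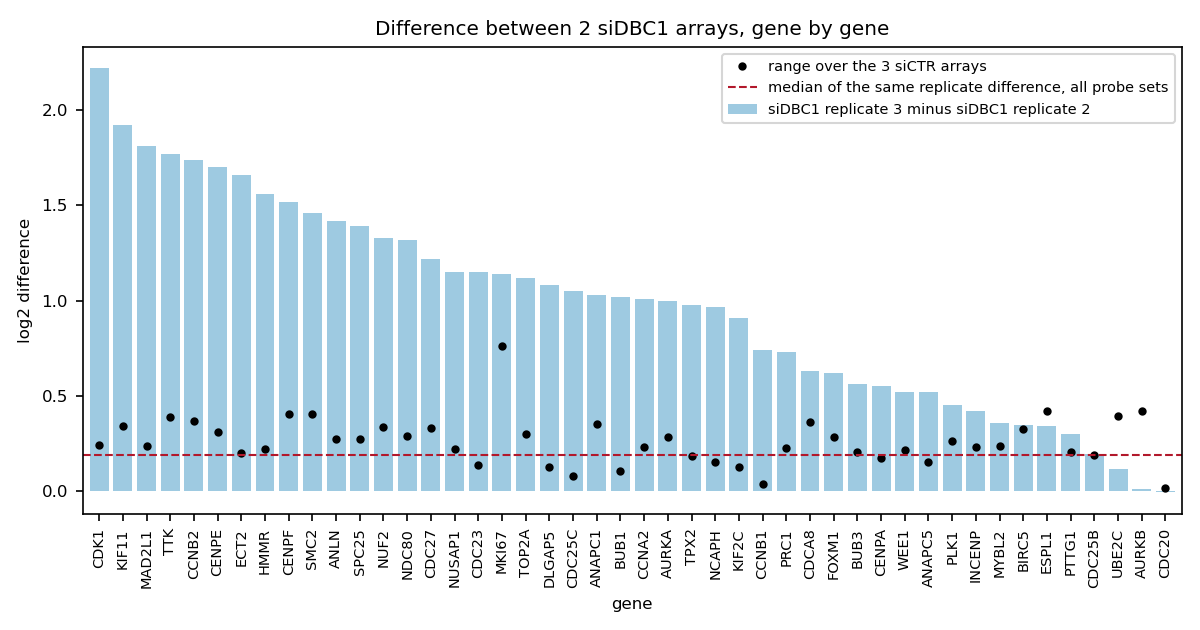
Log2 difference between siDBC1 replicate 3 and siDBC1 replicate 2 for each of the 46 genes (bars, largest first) beside the range of that gene over the 3 siCTR arrays (points). The dashed line is the median of the same difference over all probe sets, 0.19, and the bars run from 2.22 for CDK1 to −0.01 for CDC20.

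By role, the median difference between siDBC1 replicates 3 and 2 was largest for cytokinesis (1.42), the checkpoint (1.39) and kinetochores (1.36). It was 1.13 for chromosome structure, 1.11 for the spindle, 1.01 for mitotic entry and 0.72 for the 2 spindle kinases. The transcription factors (0.49), the genes of anaphase (0.43) and the passengers (0.39) had the smallest values. The genes with the smallest differences were CDC20 (−0.01), AURKB (0.01), UBE2C (0.12), CDC25B (0.19) and PTTG1 (0.30), and those with the largest were CDK1 (2.22), KIF11 (1.92), MAD2L1 (1.81), TTK (1.77) and CCNB2 (1.74). The genes whose arrays were separated from siCTR included CDC20 and AURKB, which had the smallest differences between these siDBC1 replicates. Separation asks that all arrays of a group lie on 1 side of the other group, so a small replicate difference favours it. The link is therefore partly set by the definition.

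Promoters of late cell-cycle genes are known for CCAAT boxes, bound by the factor NF-Y, and for the cell cycle homology region TTTGAA, through which DREAM and B-MYB complexes act. RefSeq windows on GRCh38.p14, from 250 bases before to 50 bases after each start, were at hand for 38 of the 46 genes, 49 windows in all. On either strand CCAAT was in 71.4% of these windows, against 34.6% of 35116 windows of all genes. TTTGAA was in 57.1%, against 15.2%, both elements in 44.9%, against 5.9%, and the variant TTCGAA in 6.12%, against 1.45%. These windows come from the annotation and were not measured here.

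The windows of 4 genes are given for what their transcripts did between arrays: CDK1 and KIF11 had the largest differences between siDBC1 replicates, and CDC20 and AURKB the smallest. Each runs 5′ to 3′ on the strand of the gene. Capitals mark CCAAT or its reverse complement ATTGG, and TTTGAA or its reverse complement TTCAAA, and no base belongs to more than 1 match. Where a gene had more than 1 window, the one with the most matches is given.
CDK1 (chr10:60778228-60778527, plus strand): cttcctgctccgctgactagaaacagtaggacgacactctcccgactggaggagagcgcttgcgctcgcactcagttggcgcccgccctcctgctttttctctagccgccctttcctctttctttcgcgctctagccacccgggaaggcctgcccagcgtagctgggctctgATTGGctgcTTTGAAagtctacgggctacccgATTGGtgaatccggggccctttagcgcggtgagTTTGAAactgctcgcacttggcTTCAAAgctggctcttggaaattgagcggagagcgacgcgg
KIF11 (chr10:92592880-92593179, plus strand): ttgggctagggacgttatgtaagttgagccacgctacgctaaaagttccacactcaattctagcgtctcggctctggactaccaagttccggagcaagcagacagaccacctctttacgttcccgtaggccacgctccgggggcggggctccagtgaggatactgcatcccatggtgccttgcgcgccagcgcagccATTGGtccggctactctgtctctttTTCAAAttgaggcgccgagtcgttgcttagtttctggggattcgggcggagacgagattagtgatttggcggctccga
CDC20 (chr1:43358731-43359030, plus strand): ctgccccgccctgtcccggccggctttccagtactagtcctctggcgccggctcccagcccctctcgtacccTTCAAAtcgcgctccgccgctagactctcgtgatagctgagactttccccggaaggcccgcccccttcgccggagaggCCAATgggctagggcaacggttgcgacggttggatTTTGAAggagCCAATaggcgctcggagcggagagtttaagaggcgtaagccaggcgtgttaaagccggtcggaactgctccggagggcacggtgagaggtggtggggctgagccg
AURKB (chr17:8210176-8210475, minus strand): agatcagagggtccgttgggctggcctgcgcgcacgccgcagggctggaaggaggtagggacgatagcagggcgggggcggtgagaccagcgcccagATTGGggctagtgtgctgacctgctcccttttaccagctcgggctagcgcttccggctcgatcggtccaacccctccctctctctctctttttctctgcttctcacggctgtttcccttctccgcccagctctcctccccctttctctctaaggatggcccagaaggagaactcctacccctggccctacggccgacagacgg

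In the CDK1 window both CCAAT matches, 78 and 46 bases before the start, read on the opposite strand, and TTTGAA lay 69 and 13 bases before it on the strand of the gene, with a further match on the other strand after the start. KIF11 held 1 match of each, CCAAT 53 and TTTGAA 28 bases before the start, both on the opposite strand. CDC20 held CCAAT 100 and 55 bases and TTTGAA 65 bases before the start on the strand of the gene, and a second TTTGAA 178 bases before it on the other. The AURKB window held 1 CCAAT match on the other strand, 153 bases before the start, and no TTTGAA. It is 1 of 2 annotated windows of AURKB, so the absence is that of this window and its annotated start only. A match to these letters is a description and not a shown binding site.

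The values of genes with and without these letters are given as a description, and their difference was not tested. Of the 38 genes, the 25 with TTTGAA in a window had a median difference of 1.15 between siDBC1 replicates 3 and 2, and the 13 without it 0.91. The 30 genes with CCAAT had a median of 1.04, and the 8 without it 1.33. CDC20, with both elements in its window, and AURKB, with only CCAAT in the window given, both lay near 0, for which they had been chosen.

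The genes read only together with other genes gave no further call. Their 14 shared probe sets differed from siCTR by −0.15 to 0.38 in siZNF326 and by −0.25 to 0.47 in siDBC1, and 0 of 14 were called, with a smallest adjusted p of 0.579 and 0.876. At an unadjusted p below 0.05 there were 0 of 14 in either. BIRC5 had a second probe set of its own, which read 5.87 to 6.21 in siZNF326, 5.69 to 6.38 in siDBC1 and 6.11 to 6.41 in siCTR. On it the siDBC1 arrays overlapped siCTR, unlike on the first.

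Other genes of mitosis, in a list that excludes the 55, showed the same order of arrays. Of 51 measured, siDBC1 replicate 2 was lowest with siDBC1 replicate 3 and siZNF326 replicate 1 highest in 31 (60.8%, against 16.4% of all probe sets), and their median difference between siDBC1 replicates 3 and 2 was 0.93. The order held for 7 of 10 cohesin genes, 4 of 8 genes of the DREAM, B-MYB and NF-Y complexes, 14 of 41 S-phase genes and 1 of 7 further subunits of the anaphase-promoting complex. In the S-phase list the median difference was 0.66, and for the cohesin genes 1.22. For the genes of the DREAM, B-MYB and NF-Y complexes it was 1.07, and for the further subunits 0.48. In the order of the lists above, siDBC1 replicate 3 was higher than replicate 2 for 48 of 51, 10 of 10, 8 of 8, 41 of 41 and 5 of 7 genes. How these lists differ from each other was not tested.

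No gene of these lists was called in any comparison. At an unadjusted p below 0.05 there were 2 of 51 other mitosis genes in siZNF326 and 3 of 51 in siDBC1, and 6 of 41 and 5 of 41 S-phase genes, beside 8.65% and 6.18% of all probe sets. ANAPC16, a small subunit of the anaphase-promoting complex, had the smallest p of its list in siDBC1, with a difference of −0.80 (SE 0.20, adjusted p = 0.425) and all siDBC1 arrays below siCTR. In siZNF326 ANAPC16 differed by −0.335 (adjusted p = 0.668), with all siZNF326 arrays below siCTR too. CDT1, which licenses replication origins and is destroyed once replication starts, had a difference of −0.57 in siZNF326 (SE 0.099, adjusted p = 0.106), and GINS1, a subunit of the replicative helicase, one of 0.88 (SE 0.17, adjusted p = 0.128). Arrays of both were separated from siCTR, which held for 18.2% of all probe sets in siZNF326, and neither passed the test. GINS1 also differed by 0.755 in siDBC1 (adjusted p = 0.373), with all siDBC1 arrays above siCTR. Separation in siDBC1 held for 8.84% of all probe sets, and both comparisons use the same siCTR arrays.

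Across the 46 genes, 4 had siZNF326 arrays separated from siCTR (8.70%, against 18.2% of all probe sets): CDC20, PTTG1 and ANLN higher and AURKB lower. In siDBC1 also 4 were separated (8.70%, against 8.84%), CDC20 higher and BUB3, AURKB and BIRC5 lower. AURKB was the one separated between siZNF326 and siDBC1 (2.17%, against 9.45%). As deposited, these shares lay at or under those of all probe sets. With arrays centred on their medians they were 21.7% in siZNF326 against siCTR (25.7% of all probe sets), 17.4% in siDBC1 against siCTR (13.3%) and 4.35% between siZNF326 and siDBC1 (12.6%). After quantile normalization they were 28.3% (against 25.6%), 26.1% (against 14.8%) and 13.0% (against 12.6%), so under these scalings the share of the 46 genes was above that of all probe sets in siDBC1, and after quantile normalization in siZNF326 and between the groups too.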

How the data were processed

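Expression was read on 9 Affymetrix whole-transcript arrays. The deposited values are log2 expression, made by the authors with RMA, per the submitters' processing notes, 1 value per probe set and array, and the probe annotation is on hg18. The software version and filters are not given in the sources used here. Detection values were not used, so levels near background are not marked, and 41.4% of probe sets had equal values on 2 or more arrays (21 of the 46 genes). With 9 arrays, replicate number sets the precision.

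Of 22011 probe sets, 14432 had 1 gene symbol, 2408 several and 5171 none. Gene identifiers matched 14404 entries of a current table and changed 0 symbols. Per gene the probe set with the highest mean was used.

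All probe sets were fitted over the 3 groups with limma 3.58.1 (lmFit, eBayes) in R 4.3.3, two-sided, with Benjamini-Hochberg adjustment within each comparison and an adjusted p below 0.05 as a call. p values weigh each difference between groups against the spread between these arrays, moderated over all probe sets. The fit was tested on simulated data. Fold is 2 to the power of the log2 difference. Separated means all 3 arrays of a group on 1 side of the other 3. The members and lists were chosen with earlier results of these data known. Values on every array were given for the 6 genes with the smallest p in each comparison and for a fixed set by role, and of each context list the 3 smallest p could be named. CCNB2, MAD2L1, TTK and ANLN were added after their values were seen. The main fit did not pair arrays by replicate number. Correlations of same-numbered arrays ran from −0.296 to 0.396, and 3 of 9 were above 0.1. With 3 arrays a group these values do not settle whether arrays were paired. Alternatives were other scalings, filters, variance settings, fits and left-out arrays. The scalings of the differences between arrays of a group were added after seeing the data.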

Additional observations from a re-analysis of the deposited data

How the results depend on the processing

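With 3 arrays a group, the unadjusted 95% interval of the median gene reached 0.58 on either side of its difference, and a call over all probe sets asks for more, so 0 calls do not show that the genes were unchanged. None of the 46 genes was called in any comparison under any alternative tried. Their count at an unadjusted p below 0.05 ran up to 15 of 46, for siZNF326 against siDBC1 without siDBC1 replicate 3, where 19.0% of all probe sets passed it. For AURKB in siZNF326 the difference from siCTR stayed below 0 in every setting, with adjusted p from 0.085 to 0.464. For CDC20 it stayed above 0, with adjusted p from 0.232 to 0.685. The median difference of the 46 genes between siZNF326 and siDBC1, 0.21 with all arrays, ran from −0.0379 without siDBC1 replicate 2 to 0.43 without siDBC1 replicate 3. That between siDBC1 and siCTR ran from −0.30 without siDBC1 replicate 3 to 0.19 without siDBC1 replicate 2, and that between siZNF326 and siCTR was −0.03 without siZNF326 replicate 1.

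Calls over all probe sets depended on the settings. Between siZNF326 and siCTR 33 became 196 after quantile normalization, 119 with arrays centred on their medians, 5 when only these groups were fitted and 1 to 64 without 1 array, the highest without siDBC1 replicate 2. Between siDBC1 and siCTR 8 became 69, 46 and 0 under the same settings, 4 with the trend and robust variance options and 0 to 4 without 1 array. Between siZNF326 and siDBC1 2 became 28, 9, 0 and 0 to 1 without 1 array. The 0 counts of the 2-group fits stood beside 1100 and 1118 probe sets at an unadjusted p below 0.05. Without the 3 arrays that stood apart, an alternative chosen after seeing the data, each count was 0 in limma, with 2401, 1910 and 1887 probe sets at an unadjusted p below 0.05. With the replicate number as a block the calls over all probe sets were 1 for siZNF326 over siCTR, 0 for siDBC1 over siCTR and 0 for siZNF326 over siDBC1, with 2007, 1360 and 1769 probe sets at an unadjusted p below 0.05, and 0 of the 46 genes were called under this block. Separated genes of the 46, also recounted after seeing the data, numbered 4, 10 and 13 for siZNF326 over siCTR as deposited, centred and quantile-normalized, 4, 8 and 12 for siDBC1 over siCTR, and 1, 2 and 6 for siZNF326 over siDBC1. The cause of these changes was not tested.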
